A study of Rattus norvegicus with 18 samples.

Results

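The study applied interferons and a mixture called TIC, made of TNFa, IL1a and C1q, to astrocytes purified by immunopanning from the brains of rats at postnatal day 5, and sequenced total RNA after 24 h. Described here is the effect of TIC on astrocytes that also received interferon gamma: the IFNg_TIC group against the IFNg group, with 3 libraries in each, which makes 6 of the 18 libraries in all 6 groups. The libraries of each group were taken by their stimulation label, and the groups themselves were chosen with earlier results of these data known. The remaining groups, IFNb_TIC, IFNb (interferon beta), TIC and Control (PBS), entered the same model and served for comparison. All cells of the IFNg_TIC and IFNg groups carried 3 ng/ml IFNg, those of the IFNb_TIC and IFNb groups carried 1000 U/ml IFNb, and those of the IFNg_TIC, IFNb_TIC and TIC groups received 30 ng/ml TNFa, 3 ng/ml IL1a and 40 ng/ml C1q, per the labels. The legend of the deposited workbook instead gives 1000 U/ml for IFNg, 3 ng/ml for IFNb and 400 ng/ml for C1q, and these files do not show which is right. The labels name no strain, sex or separate culture, and the spread on which each p-value rests may therefore be technical. Immunopanning selects cells on antibody-coated dishes, so the preparation is a purified cell type outside its tissue.

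TNF and IL1 act through receptors that activate the NF-κB and AP-1 transcription factors, while interferon gamma acts through JAK kinases, and many of its target genes carry GAS elements. TNF, IL1a and C1q are products of activated microglia, and their mixture is widely used in culture to turn astrocytes into an inflammatory reactive state. Resting astrocytes clear glutamate and GABA, buffer potassium and are joined by gap junctions, and many of the genes for these tasks serve as markers of the cell type.

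Expression was given in FPKM (fragments scaled by transcript length and library size) for 10434 table rows, and 10296 genes with at least 1 FPKM in at least 3 libraries were tested on the log2(FPKM + 1) scale, on which the change of low genes is understated. Read depth is unknown, because the values are not counts. TIC changed most of the measured transcriptome of IFNg-treated astrocytes: 6047 genes, 58.7% of those tested, passed an adjusted p of 0.05 (limma with Benjamini-Hochberg adjustment over all tested genes, the rule for every call below). Of these, 2282 genes (22.2% of those tested) were higher and 3765 (36.6%) were lower in IFNg_TIC than in IFNg libraries. These shares are the background for every list count of IFNg_TIC against IFNg below. With a log2 change of at least 1, 573 genes (5.57%) were higher and 1019 (9.9%) were lower. All 3 IFNg_TIC libraries lay above all 3 IFNg libraries in 2664 genes (25.9%) and below them in 4203 genes (40.8%). The median log2 change over all genes was -0.12. Median-ratio scaling of the libraries moved it to 0.01 and gave 3050 genes higher and 3015 lower, so the direction of changes of that size depends on the scaling.

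**Figure D1:**
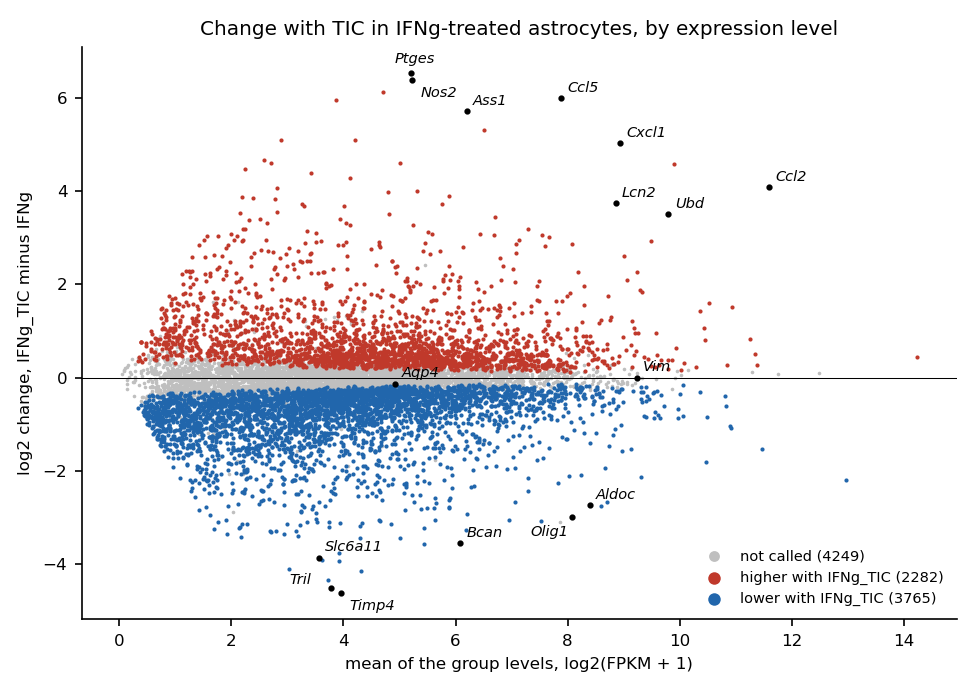
Log2 change of each tested gene (IFNg_TIC minus IFNg, vertical axis) against the mean of both group levels (log2(FPKM + 1), horizontal axis). Red points are the 2282 genes called higher and blue points the 3765 called lower; inflammatory genes such as Ptges, Nos2 and Ccl5 lie highest and Timp4 and Tril lowest.

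No library stood apart: log2(FPKM + 1) values correlated at 0.990 to 0.991 between IFNg_TIC libraries, 0.983 to 0.987 between IFNg libraries and 0.904 to 0.917 between the groups. Astrocyte markers were present, among them S100b (164 FPKM in IFNg_TIC against 1049 in IFNg) and Aldh1l1 (67.5 FPKM in IFNg_TIC against 67.1 in IFNg). Microglia were represented by 5 of 16 listed markers, with a summed level of 216 to 220 FPKM in IFNg_TIC and 96.8 to 107 FPKM in IFNg libraries. Cd68, a lysosomal protein, made up most of this sum in IFNg_TIC (165 FPKM) but not in IFNg libraries (39.8 FPKM). Tyrobp, which marks microglia more closely, was at 0.402 ± 0.381 FPKM in IFNg_TIC and 2.08 ± 0.969 FPKM in IFNg libraries (mean ± SD, n = 3 each, as for every ± below), and Aif1 was at 1.28 ± 0.215 FPKM in IFNg_TIC and 1.56 ± 0.563 FPKM in IFNg libraries. The defining microglial genes C1qa, Cx3cr1, Csf1r, P2ry12 and Tmem119, the neuronal gene Rbfox3 and the precursor gene Sox10 were not analysed here. Oligodendrocyte precursor markers (5 of 9) summed to 130 to 137 FPKM in IFNg_TIC and 893 to 1039 FPKM in IFNg libraries, and oligodendrocyte markers (5 of 10) to 80.2 to 81.2 FPKM in IFNg_TIC and 185 to 220 FPKM in IFNg libraries. Neuron markers (5 of 14) summed to 43.0 to 50.8 FPKM in IFNg_TIC and 29.5 to 39.6 FPKM in IFNg libraries, and endothelial markers (3 of 10) to 4.27 to 5.14 FPKM in IFNg_TIC and 9.76 to 15.1 FPKM in IFNg libraries. Pericyte markers (5 of 11) summed to 78.1 to 93.9 FPKM in IFNg_TIC and 66.7 to 95.7 FPKM in IFNg libraries, and ependymal markers (2 of 8) to 8.50 to 9.56 FPKM in IFNg_TIC and 2.76 to 3.99 FPKM in IFNg libraries. The part of other cells in the changes below was not tested, and in bulk RNA fewer cells of a type and less RNA per cell cannot be told apart.

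Among the receptors for the added proteins, the IL1 receptor rose and the main TNF receptor fell. Il1r1, the signalling IL1 receptor, had 20.5, 22.5 and 24.3 FPKM in IFNg_TIC libraries, against 2.86, 2.54 and 2.29 FPKM in IFNg libraries. The 2 groups did not overlap, and the log2 change was 2.72 (SE 0.15, adjusted p = 7.6e-11). Tnfrsf1a, the receptor that carries most TNF signalling, was lower (93.0 FPKM in IFNg_TIC against 156 in IFNg, log2 change -0.74), whereas Tnfrsf1b was higher (5.24 FPKM in IFNg_TIC against 1.97 in IFNg, 1.09). Of the 24 receptor and adaptor genes tested, 15 were higher and 3 lower, with a median change of 0.88. The highest changes belonged to the kinase Map3k8 (3.05), the adaptor Traf1 (2.64), the RNase Zc3h12a, which degrades inflammatory transcripts (2.62), and the survival protein Birc3 (2.42). Myd88, the adaptor of the IL1 receptor, was at 18.1 ± 0.772 FPKM in IFNg_TIC and 17.7 ± 1.46 FPKM in IFNg libraries and was not called.

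NF-κB subunits and their inhibitors rose together. Of 14 tested, 11 were higher and none was called lower, with a median change of 1.30. Nfkbia, the inhibitor IκBα and itself an NF-κB target, had 356, 357 and 387 FPKM in IFNg_TIC libraries, against 92.1, 81.4 and 85.5 FPKM in IFNg libraries, a log2 change of 2.07 (SE 0.10, adjusted p = 9.9e-12). Every IFNg_TIC library lay far above every IFNg library. The precursor subunits Nfkb1 (122 FPKM in IFNg_TIC against 27.9 in IFNg) and Nfkb2 (112 FPKM in IFNg_TIC against 25.7 in IFNg) changed by 2.09 and 2.08, and Rela by 1.10 (128 FPKM in IFNg_TIC against 59.3 in IFNg). The inhibitor-binding protein Tnip1 (2.40) and the nuclear regulator Nfkbiz (1.97) were also among the list's largest changes. The kinase subunit Ikbkb, at 17.9 ± 1.15 FPKM in IFNg_TIC and 16.9 ± 1.93 FPKM in IFNg libraries, was not called.

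AP-1 and other immediate early factors moved unevenly, with 13 of 20 higher and 3 lower. Maff (32.4 FPKM in IFNg_TIC against 3.40 in IFNg), Fosl2 (21.4 FPKM in IFNg_TIC against 3.10 in IFNg) and Atf3 rose by 2.93, 2.47 and 2.85, and Ier3 reached 389 FPKM in IFNg_TIC against 49.1 in IFNg. Fos itself fell to 7.98 FPKM in IFNg_TIC against 27.2 in IFNg (log2 change -1.66), and Egr1 and Klf10 were also lower (log2 changes -0.74 and -1.46). Jun, at 36.7 ± 1.17 FPKM in IFNg_TIC and 42.7 ± 12.5 FPKM in IFNg libraries, was not called.

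The promoters of a few members that rose are shown because they hold matches to a κB-type motif (GGG, any 2 bases, TTTCC). Sequences are from RefSeq (build GRCr8), 250 bases before the annotated start, 5′ to 3′ on the gene's strand, with matches in capitals. Cxcl1 lies at chr14:17479322-17479571, Cxcl2 at chr14:17467256-17467505, Ubd at chr20:1392686-1392935 and Nfkbia at chr6:78597073-78597322, all on the minus strand. These 4 were chosen after the matches were seen.
Cxcl1: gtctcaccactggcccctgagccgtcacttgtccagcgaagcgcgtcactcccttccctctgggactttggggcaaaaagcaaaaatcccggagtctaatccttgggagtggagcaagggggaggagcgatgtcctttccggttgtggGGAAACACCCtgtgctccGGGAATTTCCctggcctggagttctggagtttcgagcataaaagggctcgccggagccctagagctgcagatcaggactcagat
Cxcl2: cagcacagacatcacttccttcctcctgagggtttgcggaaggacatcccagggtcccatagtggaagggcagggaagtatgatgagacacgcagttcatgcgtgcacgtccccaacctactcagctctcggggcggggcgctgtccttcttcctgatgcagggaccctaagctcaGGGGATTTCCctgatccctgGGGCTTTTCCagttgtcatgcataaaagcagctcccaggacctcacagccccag
Ubd: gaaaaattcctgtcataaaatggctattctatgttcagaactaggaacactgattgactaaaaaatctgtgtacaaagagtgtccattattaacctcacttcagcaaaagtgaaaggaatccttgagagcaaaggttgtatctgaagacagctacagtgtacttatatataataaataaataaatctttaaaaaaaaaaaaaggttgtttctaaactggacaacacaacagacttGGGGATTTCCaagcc
Nfkbia: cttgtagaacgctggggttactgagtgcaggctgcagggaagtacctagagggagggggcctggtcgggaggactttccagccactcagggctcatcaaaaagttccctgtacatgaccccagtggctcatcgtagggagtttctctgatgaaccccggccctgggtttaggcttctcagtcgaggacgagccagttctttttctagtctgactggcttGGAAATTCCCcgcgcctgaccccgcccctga
Cxcl1 holds GGAAACACCC, a match on the opposite strand, at -102 to -93 from the start and GGGAATTTCC at -84 to -75. Cxcl2 holds GGGGATTTCC at -74 to -65 and GGGCTTTTCC at -54 to -45. Ubd holds GGGGATTTCC at -15 to -6, and Nfkbia holds GGAAATTCCC, on the opposite strand, at -31 to -22.

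Searched on both strands over 300 bases (250 before to 50 from the start), the κB-type motif was found in 512 of 33469 promoters (1.53%) and the GAS-type motif TTCNNNGAA in 2970 (8.87%). Among the 12 genes that rose most, 8 had a promoter entry, of which 2 held the κB-type and 2 the GAS-type motif. Among 10 entries of the 12 genes that fell most, 0 held the κB-type and 1 held the GAS-type motif. The NF-κB list had 12 entries, 5 with a κB-type and 2 with a GAS-type match. The chemokine list had 16, with 4 and 3, and the antiviral list 28, with 0 and 6. The promoters of Ptges, LOC106736471, Ass1 and Marcksl1, the 4 highest genes with an entry, held neither motif in the 250 bases before the start. A match describes letters in a window and shows no binding.

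Chemokines, the secreted attractants of leukocytes, had the highest median change of the pathway lists. Of 20 tested, 17 were higher in IFNg_TIC and none was called lower, with a median change of 2.85. Their summed level was 26631 to 27232 FPKM in IFNg_TIC libraries, against 1936 to 2669 FPKM in IFNg libraries. Ccl2, the monocyte attractant and the highest of them, had 12820.4, 12494 and 12630.5 FPKM in IFNg_TIC libraries, against 563, 919 and 778 FPKM in IFNg libraries. All 3 IFNg_TIC libraries lay close together and far above the IFNg libraries, a log2 change of 4.10 (SE 0.16, adjusted p = 8.2e-13). Its relative Ccl7, also a monocyte attractant, reached 4676 FPKM in IFNg_TIC against 194 in IFNg.

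The T cell attractant Ccl5 had 1669.7, 1983 and 2036 FPKM in IFNg_TIC libraries, against 27.9, 30.7 and 27.4 FPKM in IFNg libraries. The groups were separated more widely than for Ccl2, with a log2 change of 6.0 (SE 0.24, adjusted p = 1.2e-12). Cxcl1, a neutrophil attractant, had 2666, 2608 and 3102 FPKM in IFNg_TIC libraries, against 75.7, 88.3 and 89.2 FPKM in IFNg libraries, a change of 5.03. Its relatives Cxcl2 (41.9 FPKM in IFNg_TIC against 0.267 in IFNg), Cxcl3 (113 FPKM in IFNg_TIC against 0.869 in IFNg) and Cxcl6 (12.1 FPKM in IFNg_TIC against 0.635 in IFNg) changed by 5.11, 5.96 and 3.19, from levels near or under 1 FPKM in IFNg libraries. Ccl20, which attracts cells bearing CCR6, reached 251 FPKM in IFNg_TIC against 28.9 in IFNg and Cxcl16 727 FPKM in IFNg_TIC against 98.8 in IFNg.

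The interferon-inducible ligands of CXCR3 rose on top of IFNg. Cxcl9 was at 517 ± 17.5 FPKM in IFNg_TIC and 72.0 ± 2.67 FPKM in IFNg libraries, Cxcl11 at 473 ± 13.1 FPKM in IFNg_TIC and 51.3 ± 4.85 FPKM in IFNg libraries, and Cxcl10 at 2539.9 ± 461 FPKM in IFNg_TIC and 845 ± 190.3 FPKM in IFNg libraries. Their log2 changes were 2.83, 3.18 and 1.59, and none of the 3 overlapped between groups. The homeostatic chemokine Cxcl14, at 35.9 ± 2.57 FPKM in IFNg_TIC and 33.8 ± 3.71 FPKM in IFNg libraries, was not called, and Cx3cl1, whose receptor is on microglia, rose by 0.81 (110.4 FPKM in IFNg_TIC against 63.0 in IFNg).

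Cytokines rose at lower levels than chemokines: 10 of 17 were higher and 2 lower, with a median of 0.94. Over all genes the shares were 22.2% and 36.6%. The colony-stimulating factors Csf2 (GM-CSF) and Csf3 (G-CSF) had 23.8, 26.5 and 37.3 FPKM in IFNg_TIC libraries, against 0.591, 0 and 0 FPKM in IFNg libraries, and 19.2, 15.6 and 14.6 FPKM in IFNg_TIC libraries, against 0, 0.485 and 0.0917 FPKM in IFNg libraries. Both were near 0 in IFNg libraries, and the log2 changes were 4.67 and 3.89. Csf1, which sustains microglia, rose by 1.61 (138 FPKM in IFNg_TIC against 44.9 in IFNg), Lif by 3.73 (33.7 FPKM in IFNg_TIC against 1.62 in IFNg) and Tnf by 2.90 (25.9 FPKM in IFNg_TIC against 2.68 in IFNg). Il6 had 1.94, 1.22 and 2.29 FPKM in IFNg_TIC libraries and was listed at 0 in all IFNg libraries, so no fold is given. Il12a and the death ligand Tnfsf10 (TRAIL) were lower, the second at 2.38 ± 0.312 FPKM in IFNg_TIC and 8.52 ± 0.311 FPKM in IFNg libraries.

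Adhesion and checkpoint molecules were higher in 7 of 10 and lower in none, with a median of 0.88. Vcam1, to which leukocyte integrins bind, had 1300.2, 1297 and 1220.4 FPKM in IFNg_TIC libraries, against 189.7, 222 and 215 FPKM in IFNg libraries (log2 change 2.60, adjusted p = 1.2e-14). Icam1 rose less, by 1.23 (131 FPKM in IFNg_TIC against 55.1 in IFNg). Cd83, known from dendritic cells, showed the list's highest change, 3.90 (228 FPKM in IFNg_TIC against 14.4 in IFNg). The checkpoint ligand Cd274 (PD-L1) was at 4.94 ± 0.967 FPKM in IFNg_TIC and 2.57 ± 0.641 FPKM in IFNg libraries, a change of 0.74.

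**Figure D2:**
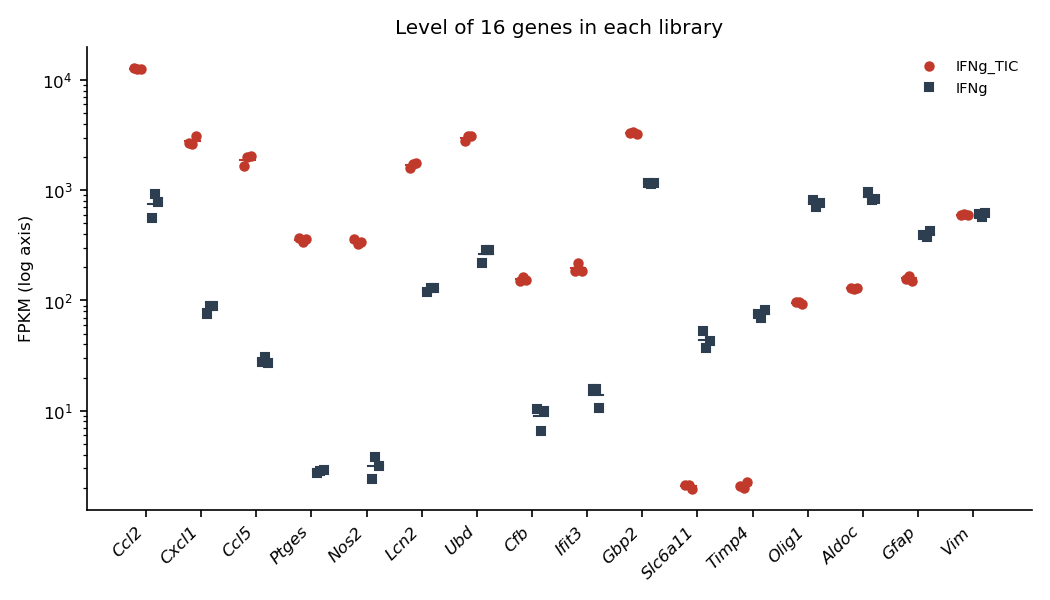
FPKM (log axis) of selected genes in each library; red circles are IFNg_TIC, dark squares IFNg, and short lines the group means. The groups do not overlap in any gene shown except Vim, whose libraries lie at 595 to 608 FPKM in IFNg_TIC and 575 to 625 FPKM in IFNg.

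Among the genes named by the size of change, Ptges had the largest rise on the log2(FPKM + 1) scale. This terminal enzyme of prostaglandin E2 synthesis had 367, 336 and 363 FPKM in IFNg_TIC libraries, against 2.75, 2.83 and 2.90 FPKM in IFNg libraries, a log2 change of 6.54 (SE 0.19, adjusted p = 3.1e-14) and a ratio of means of 126. By ratio of means Cxcl2 (157), Csf2 (148) and Cxcl3 (130.5), all under 1 FPKM on average in IFNg libraries, were higher. For Ptges, no library of either group came near the other group. Ptgs2 (COX-2), the inducible enzyme upstream, rose to 15.8 FPKM in IFNg_TIC against 1.24 in IFNg and the phospholipase Pla2g4a to 5.98 FPKM in IFNg_TIC against 1.28 in IFNg. Ptgs1 (COX-1), at 1.16 ± 0.124 FPKM in IFNg_TIC and 1.28 ± 0.617 FPKM in IFNg libraries, was not called. Hpgd, which inactivates prostaglandins, fell to 0.114 FPKM in IFNg_TIC against 4.41 in IFNg, and thromboxane synthase Tbxas1 to 7.76 FPKM in IFNg_TIC against 36.0 in IFNg, with changes of -2.25 and -2.08. Over 11 prostaglandin genes, 6 were higher and 2 lower. Other genes among the largest rises were LOC106736471, annotated in RefSeq as a long non-coding RNA, at 214 ± 16.7 FPKM in IFNg_TIC and 2.17 ± 1.06 FPKM in IFNg libraries (6.14) and Slfn2, a Schlafen protein, at 157 ± 3.04 FPKM in IFNg_TIC and 5.59 ± 1.44 FPKM in IFNg libraries (4.61). Marcksl1 had 203, 195 and 197 FPKM in IFNg_TIC libraries, against 123, 0 and 0 FPKM in IFNg libraries, so its change of 5.32 rests on values listed at 0 in IFNg libraries.

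Nitric oxide genes moved in the same contrast. Nos2, the inducible nitric oxide synthase, had 360.0, 324 and 338 FPKM in IFNg_TIC libraries, against 2.42, 3.80 and 3.16 FPKM in IFNg libraries, a log2 change of 6.38 (SE 0.22, adjusted p = 2.4e-13). Ass1, which rebuilds the arginine that Nos2 consumes, had 526, 511 and 531 FPKM in IFNg_TIC libraries, against 6.62, 8.04 and 13.2 FPKM in IFNg libraries and changed by 5.72. Both genes were low in every IFNg library and above 300 FPKM in every IFNg_TIC library. Gch1, the first enzyme of the Nos2 cofactor tetrahydrobiopterin, rose to 11.8 FPKM in IFNg_TIC against 0.667 in IFNg, and the arginine carriers Slc7a1 and Slc7a2 by 1.39 and 1.32. Later cofactor enzymes were lower, with log2 changes of -0.67 for Qdpr and -0.53 for Pts, as was Ddah1 (32.6 FPKM in IFNg_TIC against 76.3 in IFNg), which breaks down inhibitors of nitric oxide synthase. The list as a whole held 7 higher and 6 lower of 15, the lower share being near the 36.6% of all genes. Its median of -0.03 turned to 0.08 with median-ratio scaling.

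Reactive astrocyte markers were mostly higher. Lcn2 (lipocalin 2), a general marker of reactive astrocytes, had 1579, 1732 and 1776 FPKM in IFNg_TIC libraries, against 119, 129 and 131 FPKM in IFNg libraries, a log2 change of 3.74 (SE 0.14, adjusted p = 5.1e-13). Cd44, the hyaluronan receptor, rose to 339 FPKM in IFNg_TIC against 52.5 in IFNg and Timp1, an inhibitor of metalloproteinases, to 1203 FPKM in IFNg_TIC against 326 in IFNg. The intermediate filament Gfap went the other way, with 157, 167 and 151 FPKM in IFNg_TIC libraries, against 394, 377 and 424 FPKM in IFNg libraries (log2 change -1.32, adjusted p = 4.7e-10). Vim had 599, 608 and 595 FPKM in IFNg_TIC libraries, against 606, 575 and 625 FPKM in IFNg libraries, and its groups overlapped. Of the pan-reactive list, 10 of 13 were higher and 1 (Gfap) lower. Of 9 genes often called A1, 8 were higher and 0 lower, and of 9 often called A2, 6 were higher and 2 lower. Over all genes the shares were 22.2% higher and 36.6% lower. By the test of the difference, the TIC effect was lower with IFNg than without interferon in 6 A1 and 4 A2 genes. It was higher in 0 of either list, while over all genes 10.2% were lower and 3.64% higher. These lists were drawn up elsewhere from other treatments, and Gbp2, Serping1 and C3 of the A1 list are also interferon or NF-κB targets.

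In the complement system, Cfb, factor B of the alternative pathway, had 150.2, 164 and 154 FPKM in IFNg_TIC libraries, against 10.4, 6.51 and 9.91 FPKM in IFNg libraries, a log2 change of 4.0 (SE 0.15, adjusted p = 4.6e-13). C3 was far lower in level and changed less, with 6.07, 6.90 and 7.78 FPKM in IFNg_TIC libraries, against 4.0, 3.40 and 3.06 FPKM in IFNg libraries (0.82). The C1 proteases C1s (778 FPKM in IFNg_TIC against 230.2 in IFNg) and C1r (309.6 FPKM in IFNg_TIC against 133 in IFNg) and their inhibitor Serping1 (690.0 FPKM in IFNg_TIC against 280.2 in IFNg) rose by 1.75, 1.21 and 1.30. C2, at 133 ± 6.65 FPKM in IFNg_TIC and 129 ± 10.9 FPKM in IFNg libraries, was not called. Cd59, which blocks the terminal pore, fell to 2.86 FPKM in IFNg_TIC against 20.4 in IFNg (-2.49). Over 11 genes, 6 were higher and 4 lower, beside 22.2% and 36.6% of all genes, so the lower share was near the background. The TIC effect was lower with IFNg than without interferon in 5 and higher in 2, beside 10.2% and 3.64% of all genes.

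Antiviral interferon-stimulated genes, which classically follow type I interferon, rose when TIC was added to IFNg. Of 40 tested, 33 were higher and 0 lower, with a median change of 0.81. Ifit3, an antiviral protein that acts with other Ifit members on viral RNA, had 183, 217 and 185 FPKM in IFNg_TIC libraries, against 15.6, 15.7 and 10.7 FPKM in IFNg libraries, a log2 change of 3.73 (SE 0.40, adjusted p = 4.5e-07). Rsad2 (viperin) had 523, 538 and 542 FPKM in IFNg_TIC libraries, against 48.0, 82.9 and 62.3 FPKM in IFNg libraries, a change of 3.07. For both, every IFNg_TIC library was well above every IFNg library.

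Irf7, the transcription factor that drives type I interferon genes, had 123, 134 and 134 FPKM in IFNg_TIC libraries, against 18.3, 16.3 and 9.43 FPKM in IFNg libraries (log2 change 3.12, adjusted p = 3.2e-09). Oasl had 31.6, 33.6 and 31.5 FPKM in IFNg_TIC libraries, against 3.44, 2.65 and 2.57 FPKM in IFNg libraries, and the ubiquitin-like modifier Isg15 548, 686 and 679 FPKM in IFNg_TIC libraries, against 140.4, 136 and 118 FPKM in IFNg libraries. These changes were 3.10 and 2.26, again with no overlap. The log2 changes of the remaining called members lay between 0.20 (Parp9) and 2.11 (Ifit2), and the not called ones were Oas2, Isg20, Adar, Bst2, Irf9, Trim21 and Mx1. Ifit and Oas genes have near-identical copies, so the share of reads given to each member is uncertain.

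The same genes were then set against the other treatments. In all 40, the change with TIC was computed without interferon and with IFNb in separate libraries. Without interferon (TIC against Control) 17 were higher and 7 lower, with a median of 0.04, beside 25.3% and 31.2% of all genes. With IFNb (IFNb_TIC against IFNb) 6 were higher and 13 lower, with a median of -0.18, beside 18.6% and 27.7% of all genes.

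The difference between the effects was itself tested. The TIC effect was higher with IFNg than without interferon in 23 antiviral genes and lower in 2, Ifitm3 and Lgals3bp, while over all genes 375 (3.64%) were higher and 1052 (10.2%) lower. It was higher with IFNg than with IFNb in 32 and lower in 0, while over all genes 297 (2.88%) were higher and 748 (7.26%) lower. These all-gene counts depend on the scaling. Median-ratio scaling gave 489 higher and 734 lower against the effect without interferon, and 377 and 597 against that with IFNb. Ifit3 had 3.29, 0.892 and 2.30 FPKM in TIC libraries, and 7.29, 4.19 and 0.578 FPKM in Control libraries. Its difference of effects was 4.17 (SE 0.57, adjusted p = 1.1e-04).

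Levels stayed under those with IFNb. All IFNg_TIC libraries lay below all IFNb libraries in 39 of the 40 antiviral genes, Parp14 being the exception, and above all TIC libraries in 38. The share of all genes separated in this way is not given here, so these counts have no background beside them. Ifit3 had 2186, 2179 and 2317 FPKM in IFNb_TIC libraries, and 2021, 2257 and 2416 FPKM in IFNb libraries. Mx2 moved in opposite directions: it was at 124 ± 12.5 FPKM in IFNg_TIC and 60.4 ± 9.78 FPKM in IFNg libraries, a change of 1.04, but changed by -1.43 with TIC alone, a difference of 2.46 (adjusted p = 8.8e-06).

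**Figure D3:**
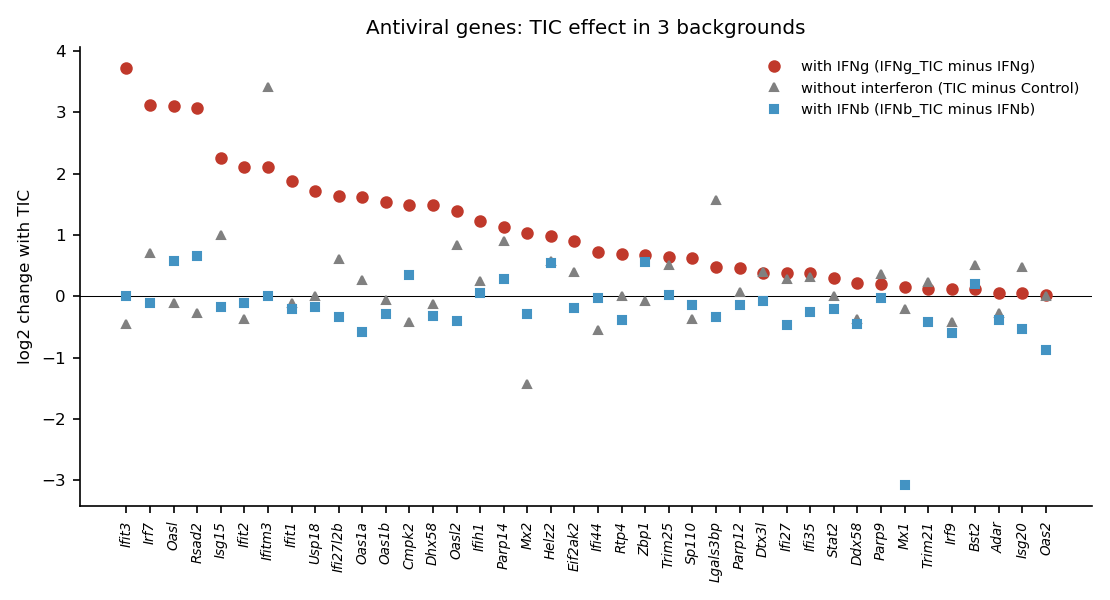
Log2 change with TIC (vertical axis) for each of the 40 antiviral genes (horizontal axis, ordered by the change with IFNg): red circles with IFNg, grey triangles without interferon, blue squares with IFNb. With IFNg the points lie at or above 0, with a median of 0.81; the medians of the grey and blue points are 0.04 and -0.18.

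Regulators and targets of the interferon gamma pathway also rose in most cases, 17 of 22, with 1 lower. Ubd (FAT10), a ubiquitin-like protein induced jointly by TNF and IFNg in human cells, had 2780.5, 3104 and 3109 FPKM in IFNg_TIC libraries, against 221, 285 and 288 FPKM in IFNg libraries. Its groups were wide apart, with a log2 change of 3.50 (SE 0.22, adjusted p = 3.5e-10) and a TIC effect higher with IFNg than without by 1.92 (adjusted p = 4.5e-04). With IFNb the TIC effect on Ubd was larger still, 4.68, and the effect with IFNg differed from it by -1.18 (adjusted p = 0.02). Irf1, a transcription factor induced by IFNg, was higher (532 FPKM in IFNg_TIC against 324 in IFNg, 0.71), as were the receptor chains Ifngr1 (0.95) and Ifngr2 (0.42) and the feedback inhibitors Socs1 (0.69) and Socs3 (1.20). Jak2, at 38.4 ± 3.72 FPKM in IFNg_TIC and 33.6 ± 2.96 FPKM in IFNg libraries, was not called.

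Guanylate-binding proteins, which attack pathogen membranes, were already high with IFNg. Gbp2 had 3293, 3398 and 3228 FPKM in IFNg_TIC libraries, against 1162, 1139.9 and 1155 FPKM in IFNg libraries, a log2 change of 1.52 (SE 0.10, adjusted p = 4.2e-10). Without interferon, TIC alone changed Gbp2 by 4.25, and the difference of -2.73 passed the test (adjusted p = 1.2e-09). Gbp5 rose by 1.64 and Gbp4 by 0.76. Igtp, an immunity-related GTPase, was lower (-0.25), a call lost with a pseudocount of 0.1 and with median-ratio scaling. Of 6 tested, 4 were higher and 1 lower.

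Antigen presentation by MHC class I rose only modestly. Of 39 genes, 20 were higher and 1 lower with a median of 0.26. With median-ratio scaling 27 were higher and with equal sums per library 17, so the calls of the smaller changes depend on the scaling. RT1-A2, a classical class I chain, had 1352, 1356 and 1356 FPKM in IFNg_TIC libraries, against 1188, 1124 and 1145 FPKM in IFNg libraries (0.23, adjusted p = 0.0061), and B2m, the common light chain, 1203, 1207 and 1198 FPKM in IFNg_TIC libraries, against 842, 1110.1 and 959 FPKM in IFNg libraries (0.32). In neither did the groups overlap, though the steps were small. Leaving out IFNg replicate 1 left B2m at 0.22 with an adjusted p of 0.0744. The loading chaperone Tapbp (tapasin) changed most, by 1.20 (464 FPKM in IFNg_TIC against 202 in IFNg).

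With TIC alone, 29 of the 39 class I genes were higher and 1 lower, beside 25.3% and 31.2% of all genes, with a median of 1.08. By the test of the difference the effect with IFNg was lower in 23 and higher in 2, beside 10.2% and 3.64% of all genes, and 0 differed from the effect with IFNb in either direction. RT1-A2 had 96.2, 115 and 114 FPKM in TIC libraries, against 21.6, 23.6 and 23.3 FPKM in Control libraries. RT1 genes are a family of near-identical copies, so values of single members are uncertain.

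MHC class II genes were mixed, with 4 of 15 higher, 4 lower and a median of -0.02, near the background shares. Cd74, the invariant chain, had 305, 321 and 319 FPKM in IFNg_TIC libraries, against 168, 160.0 and 160.1 FPKM in IFNg libraries (0.95, adjusted p = 1.2e-05), and the master regulator Ciita was at 2.28 ± 0.521 FPKM in IFNg_TIC and 1.26 ± 0.399 FPKM in IFNg libraries (0.54). The class II chain RT1-Da went down, at 48.5 ± 2.21 FPKM in IFNg_TIC and 59.4 ± 3.32 FPKM in IFNg libraries (-0.29), a call that was lost with median-ratio scaling (adjusted p = 0.25), with a pseudocount of 0.1 (0.28) and without IFNg_TIC replicate 2 or 3 or IFNg replicate 1 or 2 (0.054 to 0.099). For Cd74 the TIC effect was lower with IFNg than with IFNb, a difference of -1.60 (adjusted p = 4.5e-05).

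**Figure D4:**
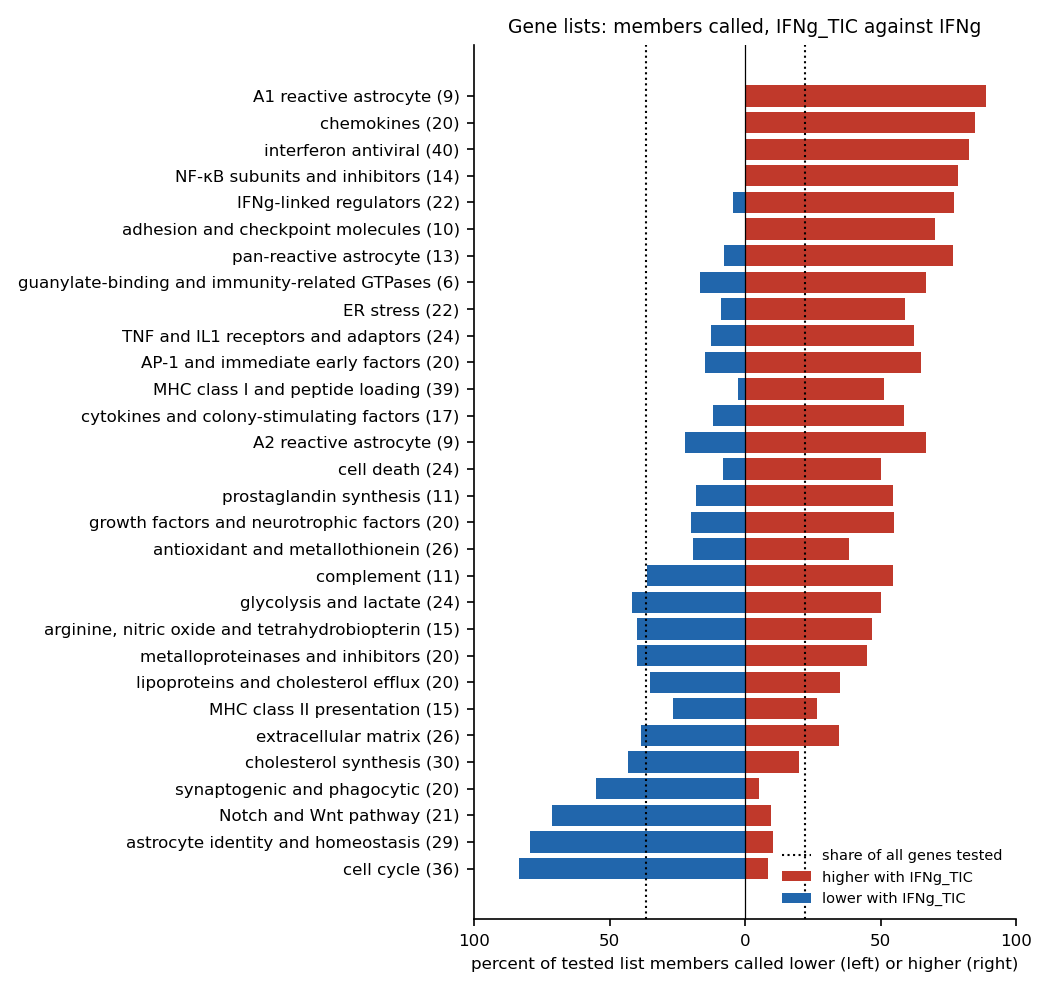
Percent of the tested members of each gene list (number in parentheses) called lower (blue, left) or higher (red, right) in IFNg_TIC against IFNg. Dotted lines mark the shares of all genes tested, 36.6% lower and 22.2% higher; inflammatory and interferon lists lie to the right, and astrocyte identity and cell cycle lists to the left.

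Genes of resting astrocytes fell. Of 29 identity and homeostasis genes tested, 23 were lower and 3 higher (Id3, Id4 and Slc1a2), with a median change of -1.46. The GABA transporter Slc6a11 (GAT-3) had 2.12, 2.11 and 1.96 FPKM in IFNg_TIC libraries, against 53.1, 36.8 and 42.7 FPKM in IFNg libraries, a log2 change of -3.87 (SE 0.13, adjusted p = 1.2e-13). The highest IFNg_TIC library stayed far under the lowest IFNg library.

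Aldoc, the astrocyte aldolase, had 129, 126 and 131 FPKM in IFNg_TIC libraries, against 966, 818 and 830.3 FPKM in IFNg libraries (-2.74, adjusted p = 2.6e-14), and S100b changed by -2.67. The potassium channel Kcnj10 (Kir4.1) fell to 1.12 FPKM in IFNg_TIC against 11.7 in IFNg, a log2 change of -2.55. Glutamine synthetase Glul was lower (239 FPKM in IFNg_TIC against 551 in IFNg, log2 change -1.20). The glutamate transporter Slc1a2 (GLT-1) did not follow. It had 24.4, 24.5 and 23.1 FPKM in IFNg_TIC libraries, against 16.6, 17.3 and 18.8 FPKM in IFNg libraries, a small rise of 0.43. A second glutamate transporter, Slc1a3 (GLAST), at 6.77 ± 2.68 FPKM in IFNg_TIC and 10.4 ± 11.1 FPKM in IFNg libraries, was not called. Its IFNg libraries were too spread to show whether it changed. The water channel Aqp4, at 28.1 ± 2.30 FPKM in IFNg_TIC and 30.9 ± 3.62 FPKM in IFNg libraries, was not called either, and its change of -0.13 turned to 0.01 with median-ratio scaling.

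Gja1 (connexin 43), the main gap junction protein of astrocytes, had 257, 268 and 265 FPKM in IFNg_TIC libraries, against 456, 449 and 449 FPKM in IFNg libraries. This fall, a log2 change of -0.77 (SE 0.06, adjusted p = 6.8e-09) set it apart from TIC alone, where Gja1 changed by 0.22, and the difference of -1.0 passed the test (adjusted p = 7.7e-07). Gfap differed from the effect with IFNb, which was 1.01, by -2.33 (adjusted p = 5.4e-09). Its difference from the effect without interferon was much smaller, -0.31 when only the groups compared were fitted. That difference was called in some of the alternatives but not in the main fit. The fall of Gfap was therefore not set apart from TIC alone in the way that of Gja1 was. In the identity list, 7 genes had a lower TIC effect with IFNg than without interferon and 0 a higher one, beside 10.2% and 3.64% of all genes. Against IFNb, 18 were lower and 1 higher, beside 7.26% and 2.88% of all genes.

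Some of the largest falls lay in other secreted and membrane proteins. Timp4, an inhibitor of metalloproteinases, had 2.07, 1.98 and 2.27 FPKM in IFNg_TIC libraries, against 76.1, 69.2 and 82.8 FPKM in IFNg libraries, a log2 change of -4.63 (SE 0.12, adjusted p = 1.6e-14). Tril, a coreceptor of Toll-like receptor 4, had 1.73, 1.68 and 2.12 FPKM in IFNg_TIC libraries, against 67.5, 58.0 and 67.8 FPKM in IFNg libraries (-4.52). For both genes the IFNg_TIC libraries clustered near 2 FPKM and did not overlap the IFNg libraries. Aspa, which cleaves N-acetylaspartate, fell to 3.71 FPKM in IFNg_TIC against 83.6 in IFNg, the kinase Camk1g to 2.16 FPKM in IFNg_TIC against 46.4 in IFNg, and the calcium-binding matrix protein Smoc1 to 2.84 FPKM in IFNg_TIC against 58.5 in IFNg. Slc35d3, Btbd17 and Nrgn (neurogranin) were lower, with log2 changes of -4.35, -4.11 and -3.78. Bcan (brevican), a proteoglycan of the brain matrix, was at 18.8 ± 1.37 FPKM in IFNg_TIC and 232 ± 18.8 FPKM in IFNg libraries (-3.56).

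Genes shared with the oligodendrocyte lineage fell as well. Olig1, a lineage transcription factor, had 96.2, 96.9 and 92.2 FPKM in IFNg_TIC libraries, against 813, 706 and 772 FPKM in IFNg libraries (-2.99, adjusted p = 7.1e-14), and Olig2 36.9, 34.5 and 33.3 FPKM in IFNg_TIC libraries, against 199.97, 167 and 174 FPKM in IFNg libraries. The groups did not overlap in either gene. Cnp, a myelin protein, was lower (76.5 FPKM in IFNg_TIC against 195 in IFNg, -1.34), whereas Mbp, at 1.08 ± 0.697 FPKM in IFNg_TIC and 0.374 ± 0.382 FPKM in IFNg libraries, was not called.

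Notch and Wnt genes were lower in 15 of 21 and higher in 2, with a median of -0.93. The Notch target Hey1 fell to 3.37 FPKM in IFNg_TIC against 24.1 in IFNg (-2.53), the Notch modifier Lfng to 0.969 FPKM in IFNg_TIC against 9.99 in IFNg (-2.44) and the ligand Wnt7a to 1.32 FPKM in IFNg_TIC against 13.3 in IFNg (-2.64). Hes1, another Notch target, was at 5.79 ± 0.341 FPKM in IFNg_TIC and 4.94 ± 0.387 FPKM in IFNg libraries and was not called. Jag1, a Notch ligand, was higher by 0.65.

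Cell cycle genes were lower in 30 of 36 and higher in 3, with a median of -0.98. With median-ratio scaling 26 were lower. Mki67 was low in both groups, at 0.243 ± 0.05 FPKM in IFNg_TIC and 1.29 ± 0.141 FPKM in IFNg libraries. Top2a was at 1.03 ± 0.374 FPKM in IFNg_TIC and 6.21 ± 0.580 FPKM in IFNg libraries. Not all members were low: the list summed to 1365 to 1465 FPKM in IFNg_TIC and 1266 to 1367 FPKM in IFNg libraries. The members that were higher were Cdkn1a (p21) and Cdkn2b (p15), both inhibitors of cyclin-dependent kinases, and Ccng1, by 0.95, 0.77 and 1.06. Cyclin D1 (Ccnd1) was lower with IFNg (log2 change -0.25), while TIC alone changed it by 0.56, a difference of -0.81 (adjusted p = 8.9e-06).

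Factors acting on synapses and debris were lower in 11 of 20 and higher in 1, Axl, beside 36.6% and 22.2% of all genes. Mfge8, a bridge to phagocytosed cells, fell to 33.2 FPKM in IFNg_TIC against 174 in IFNg (-2.36), the engulfment receptor Megf10 to 10.4 FPKM in IFNg_TIC against 35.8 in IFNg (-1.70) and Gas6, the ligand of Axl and Mertk, to 208 FPKM in IFNg_TIC against 551 in IFNg (-1.41). Mertk (5.0 ± 0.231 FPKM in IFNg_TIC and 4.37 ± 0.833 FPKM in IFNg libraries) and the synaptogenic glypican Gpc4 (6.89 ± 0.613 FPKM in IFNg_TIC and 6.82 ± 1.08 FPKM in IFNg libraries) were not called. The synapse organiser Sparcl1 (hevin) was lower (-1.12).

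Of 20 metalloproteinases and their inhibitors, 9 were higher and 8 lower, the lower share being near the 36.6% of all genes. Mmp9, a gelatinase, had 32.2, 25.8 and 26.0 FPKM in IFNg_TIC libraries, against 0.730, 0.621 and 0.790 FPKM in IFNg libraries (4.07, adjusted p = 1.2e-14), and the stromelysin Mmp3 had 27.5, 8.20 and 9.06 FPKM in IFNg_TIC libraries, against 0.712, 0 and 0 FPKM in IFNg libraries. Both were under 1.5 FPKM in every IFNg library, and the IFNg_TIC libraries of Mmp3 were spread. Mmp15, a membrane-bound member, fell to 5.74 FPKM in IFNg_TIC against 58.5 in IFNg (-3.13). In the extracellular matrix list, 9 of 26 were higher and 10 lower, near the background on the lower side. Tenascin C (Tnc) and osteopontin (Spp1) rose by 3.27 and 3.07 (116 FPKM in IFNg_TIC against 11.2 in IFNg and 295 FPKM in IFNg_TIC against 34.6 in IFNg), and fibronectin (Fn1) by 2.23.

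Growth factors were higher in 11 of 20 and lower in 4, beside 22.2% and 36.6% of all genes. Hbegf, a ligand of the EGF receptor, was at 138 ± 4.74 FPKM in IFNg_TIC and 15.4 ± 0.543 FPKM in IFNg libraries (3.08), and its relatives Ereg and Areg rose by 3.86 and 2.57. The stress cytokine Gdf15 reached 94.3 FPKM in IFNg_TIC against 7.36 in IFNg. Igfbp2, a carrier of insulin-like growth factors, fell to 299 FPKM in IFNg_TIC against 1328 in IFNg (-2.14).

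Of 26 antioxidant and metallothionein genes, 10 were higher and 5 lower, beside 22.2% and 36.6% of all genes. Their median change was 0.07. Sod2, the mitochondrial superoxide dismutase and an NF-κB target, had 1950.4, 1977 and 2036 FPKM in IFNg_TIC libraries, against 234, 283 and 265 FPKM in IFNg libraries (2.93, adjusted p = 3.9e-14). The members that rose included the cystine carrier Slc7a11 (2.81), the quinone reductase Nqo1 (1.84), the thioredoxin reductase Txnrd1 (1.68) and the heme oxygenase Hmox1 (1.44, 2152 FPKM in IFNg_TIC against 803 in IFNg). Metallothionein Mt3 was lower (1667 FPKM in IFNg_TIC against 4805 in IFNg, -1.53).

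Of 22 ER stress genes, 13 were higher and 2 lower, beside 22.2% and 36.6% of all genes. The TIC effect was larger with IFNg than without interferon in 7 and smaller in 7, beside 3.64% and 10.2% of all genes. Ddit3 (CHOP) had 61.5, 76.4 and 80.4 FPKM in IFNg_TIC libraries, against 14.2, 16.4 and 16.9 FPKM in IFNg libraries (2.13), while TIC alone changed it by 0.25, a difference of 1.88 (adjusted p = 2.7e-05). Trib3, its target, changed by 2.67 and differed by 1.86 (adjusted p = 0.0039), and asparagine synthetase Asns by 1.45 and 0.90. The chaperones Hspa5, Pdia6 and Hsp90b1 also rose, by 0.68, 0.25 and 0.18, but less than with TIC alone (-0.43, -0.46 and -0.42).

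Cell death genes were higher in 12 of 24 and lower in 2, beside 22.2% and 36.6% of all genes. The inflammatory caspases Casp4 (78.8 FPKM in IFNg_TIC against 28.1 in IFNg) and Casp1 (16.7 FPKM in IFNg_TIC against 6.54 in IFNg) rose by 1.46 and 1.30, and Bid by 1.19. Gsdme, a pore former, fell to 4.32 FPKM in IFNg_TIC against 16.7 in IFNg.

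In energy metabolism, 12 of 24 glycolysis genes were higher and 10 lower, beside 22.2% and 36.6% of all genes, so the lower share was near the background. The glucose transporter Slc2a1 rose to 69.6 FPKM in IFNg_TIC against 15.8 in IFNg (2.08) and hexokinase Hk2 to 6.25 FPKM in IFNg_TIC against 1.39 in IFNg (1.62), while the muscle-type phosphofructokinase Pfkm fell to 19.1 FPKM in IFNg_TIC against 92.3 in IFNg (-2.22) and Pkm was lower (-0.75). Of 30 cholesterol synthesis genes, 6 were higher and 13 lower, near the 22.2% and 36.6% of all genes, with a median of -0.05. With median-ratio scaling 11 were higher and 10 lower. Hmgcs1, which feeds the pathway, was at 794 ± 37.3 FPKM in IFNg_TIC and 1269.6 ± 23.6 FPKM in IFNg libraries (-0.68). Among lipoprotein genes, 7 of 20 were higher and 7 lower, near the background, with the lipid droplet protein Plin2 at 232 FPKM in IFNg_TIC against 53.6 in IFNg (2.10) and Apoe at 29.4 ± 12.3 FPKM in IFNg_TIC and 50.4 ± 15.2 FPKM in IFNg libraries, whose libraries overlapped.

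Across the transcriptome, the effect of TIC with IFNg was set beside the effect without interferon; the 2 contrasts share no library. Of the 2282 genes higher with IFNg, 1747 (76.6%) were also higher with TIC alone, which is 67.0% of the 2608 genes higher there. Of the 3765 lower genes, 2697 (71.6%) were also lower with TIC alone, 84.1% of those lower there. The log2 changes correlated at 0.859 over 10296 genes, which are not independent replicates. Called in opposite directions were 26 genes higher with IFNg and lower without and 71 the other way.

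A call in only 1 of the 2 backgrounds is no test of a difference: of 1506 genes called with IFNg and not without, the difference passed in 345. It also passed in 687 genes that were called in the same direction in both. By at least 1 on the log2 scale, 98 genes (0.952%) had a higher and 212 (2.06%) a lower effect with IFNg. Among chemokines, 3 of 20 effects were larger and 7 smaller with IFNg, beside 3.64% and 10.2% of all genes. Ccl2 had 12540.5, 9797 and 10609.9 FPKM in TIC libraries, against 217, 283 and 259 FPKM in Control libraries, and its difference of effects was -1.34 (adjusted p = 6.1e-04).

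Genes outside the antiviral list also differed between the backgrounds. The stress factor Atf3 had 67.5, 61.2 and 65.3 FPKM in IFNg_TIC libraries, against 5.96, 11.3 and 7.79 FPKM in IFNg libraries. With TIC alone it had 18.3, 20.1 and 23.1 FPKM in TIC libraries, against 10, 28.3 and 30.2 FPKM in Control libraries, and the difference was 2.86 (adjusted p = 1.5e-04). With IFNb as the background TIC changed Atf3 by 2.49, and the difference from that effect, 0.36, was not called (adjusted p = 0.65). Sp100, a nuclear body protein, had 7.50, 9.33 and 6.20 FPKM in IFNg_TIC libraries, against 1.03, 0 and 0.379 FPKM in IFNg libraries, and stayed under 0.5 FPKM in all TIC and Control libraries.

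In the other direction, the keratin Krt18 rose with TIC alone, with 7.14, 8.72 and 10.6 FPKM in TIC libraries, against 0.297, 0 and 0.355 FPKM in Control libraries. With IFNg it was at 1.14 ± 0.183 FPKM in IFNg_TIC and 0.796 ± 0.376 FPKM in IFNg libraries and was not called, a difference of -2.74 (adjusted p = 5.1e-06). The calcium buffer Calb1 fell with TIC in the presence of IFNg (2.66 FPKM in IFNg_TIC against 5.89 in IFNg, -0.92) and changed by 1.92 without interferon, a difference of -2.84. The fatty acid carrier Fabp4 had 5.69, 4.99 and 5.07 FPKM in TIC libraries, and was under 1 FPKM in all IFNg_TIC, IFNg and Control libraries.

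With IFNb as the background, 1527 genes were higher with TIC in both, 66.9% of those higher with IFNg and 79.9% of those higher with IFNb. Lower in both were 2509 (66.6% and 88.1%). Called in opposite directions were 23 genes higher with IFNg and lower with IFNb and 20 the other way, and the changes correlated at 0.864. Besides antiviral genes, Cfb had a TIC effect higher with IFNg by 3.08 (adjusted p = 2.2e-07), and the adenosine receptor Adora1 (2.12 FPKM in IFNg_TIC against 26.7 in IFNg) a lower one, a difference of -2.08 (adjusted p = 4.8e-06). Mgp, a matrix protein, had 74.1, 62.2 and 61.8 FPKM in IFNg_TIC libraries, against 443, 301 and 345 FPKM in IFNg libraries, a change of -2.43, while with IFNb it changed by 1.47 and the difference was -3.90 (adjusted p = 7.8e-04). By at least 1 on the log2 scale, 78 genes (0.758%) had a higher and 158 (1.53%) a lower effect with IFNg than with IFNb. Against both backgrounds at once, the effect with IFNg was higher in 104 genes and lower in 266.

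**Figure D5:**
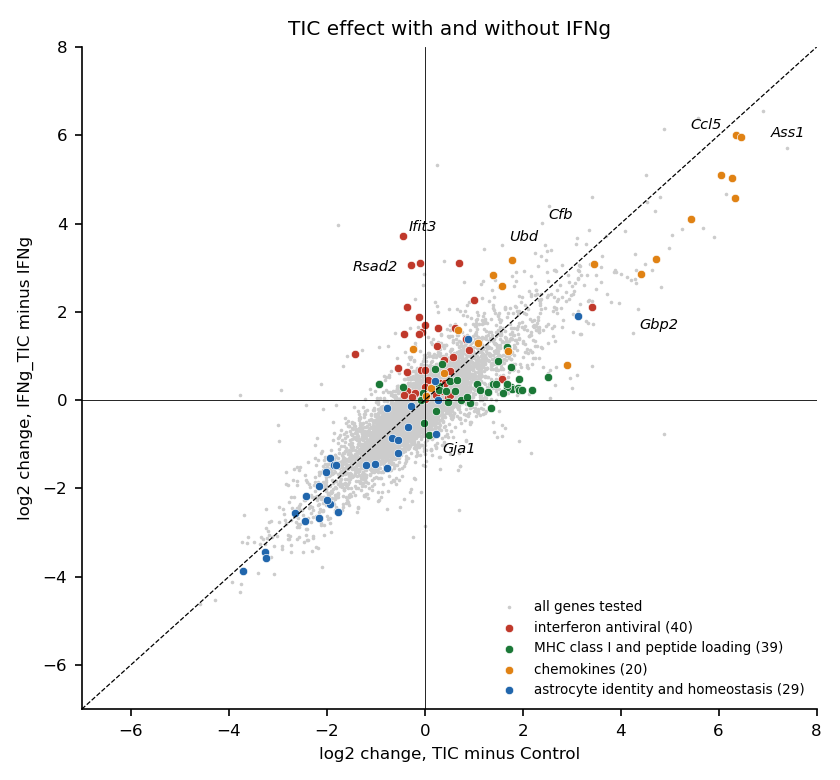
Log2 change with TIC in IFNg-treated astrocytes (IFNg_TIC minus IFNg, vertical axis) against the change without interferon (TIC minus Control, horizontal axis) for 10296 genes, with 4 lists in colour and equality as a dashed line. Ifit3 (3.73 against -0.45) lies above the line and Gbp2 (1.52 against 4.25) below it. By the test of the difference, 23 of 40 antiviral genes were called above the line and 2 below. Of 39 MHC class I genes, 23 were called below it and 2 above.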

How the data were processed

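Libraries were made from total RNA with the SMART-seq HT and Nextera XT kits, per the labels' protocols. HISAT2, StringTie and DESeq2 and the mouse build mm10 are named in the submitters' processing notes, although the deposited table carries rat Ensembl identifiers; no version is named in the labels. The authors deposited FPKM values for 18 libraries in a workbook of 10434 rows, whose lowest row mean is 0.501 FPKM. From these, 3 rows without a gene name were left out (at most 0.0120% of a library's FPKM), and 15 of 17 symbols turned into dates were kept under their Ensembl identifier. Values from the deposited FPKM were put on a log2 scale with a pseudocount of 1, and genes with at least 1 FPKM in at least 3 libraries were kept. limma 3.58.1 in R 4.3.3 was fitted to all 18 libraries with 1 mean per group and a mean-dependent prior variance, and p-values were adjusted by Benjamini-Hochberg over 10296 genes. On simulated data of that size, 97% of log2 changes of 1 and 98% of log2 changes of 2 were recovered with 11 false calls. The simulation changed only a small set of genes that were not low and left the rest unchanged. Its noise was independent, with no scaling shift. The real data, with 58.7% of genes called, differ from that setting, so these rates are not error rates of the calls above. Depth is unknown, so no count model or counting interval was possible. An FPKM listed at 0 may be a failed estimate: 33 genes stood at 0.5 or less in some and 10 or more in other libraries of the IFNg_TIC or IFNg group, 4 of them called.

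The groups, gene lists and named genes were chosen with earlier results of these data known. Named were the 12 highest and 12 lowest called genes with a log2 change of at least 1, a mean of at least 5 FPKM in either group and no overlap, up to 4 called members per list, a set of inflammatory, interferon and astrocyte genes, the 8 highest and lowest called differences between TIC effects, and the 6 most abundant genes called in opposite directions. Further list members, named for their role, were chosen after their values were seen. A few genes that these rules name are not reported here.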

Additional observations from a re-analysis of the deposited data

Results flagged for a closer look

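The results below were singled out because the effect of TIC with IFNg (IFNg_TIC against IFNg) differed by test from its effect without interferon (TIC against Control) or with IFNb (IFNb_TIC against IFNb), in limma with Benjamini-Hochberg adjustment. Against the effect without interferon, 375 genes were higher and 1052 lower. Against the effect with IFNb, 297 genes were higher and 748 lower.

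Differences of effects (with IFNg minus without interferon, log2) were positive for the antiviral genes Ifit3 (4.17), Rsad2 (3.34), Oasl (3.21), Oas1k (2.49) and Mx2 (2.46), for the stress factor Atf3 (2.86), for Sp100 (2.64), for MGC105649 (2.74), to which no role is given here, and for Ly6e (1.25), a membrane protein that restricts viruses. Oas1k was low, with 5.29, 6.93 and 7.39 FPKM in IFNg_TIC libraries, against 2.57, 0 and 0 FPKM in IFNg libraries, and MGC105649 had 27.4, 26.7 and 33.3 FPKM in IFNg_TIC libraries, against 2.77, 2.10 and 2.34 FPKM in IFNg libraries.

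They were negative for Calb1 (-2.84), Krt18 (-2.74), Gbp2 (-2.73), the membrane protein Cav1 (-2.63), Fabp4 (-2.52), the secreted growth regulator Ctgf (-3.36), Gja1 (-0.996), the signalling subunit Gnai2 (-0.50) and the ribosomal proteins Rps18 (-0.62) and Rps3 (-0.51). Ctgf varied within groups, with 1.63, 1.92 and 3.66 FPKM in IFNg_TIC libraries, against 14.8, 2.37 and 7.0 FPKM in IFNg libraries, which overlapped in the range between the lowest IFNg and the highest IFNg_TIC library. Cav1 had 34.6, 16.8 and 25.9 FPKM in IFNg_TIC libraries, against 19.0, 15.5 and 9.41 FPKM in IFNg libraries, also overlapping. Its difference lost the call with a pseudocount of 0.1 (adjusted p = 0.086) and without IFNg_TIC replicate 2, IFNg replicate 1 or TIC replicate 1 (0.053 to 0.065, with differences of -2.37 to -2.47). The ribosomal genes have many processed copies, so their values are uncertain. With median-ratio scaling, the TIC effect with IFNg on Rps18, Rps3 and Gnai2 was no longer called, and that on Gnai2 was also lost without IFNg_TIC replicate 3 or IFNg replicate 1.

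In 3 genes the difference rests on values listed at 0. Marcksl1 (5.07) had 203, 195 and 197 FPKM in IFNg_TIC libraries, against 123, 0 and 0 FPKM in IFNg libraries. Lmo2 (-5.64) had 5.88, 0 and 0 FPKM in IFNg_TIC libraries, against 0, 4.73 and 4.81 FPKM in IFNg libraries, while it had 33.9, 27.0 and 25.2 FPKM in TIC libraries and was listed at 0 in all Control libraries. Ndst2 (-2.85) was listed at 0 in every IFNg_TIC, TIC and Control library and had 6.06, 5.79 and 6.78 FPKM in IFNg libraries. Leaving out any single IFNg_TIC, TIC or Control library, or IFNg replicate 2 or 3, ended the call of the difference for Marcksl1, with differences of 3.91 to 5.10.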

How the results depend on the processing

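Across the alternatives run (another pseudocount, filter or scaling, only the groups compared, library quality weights, without genes jumping to 0, the replicate block, and each library left out), 0 genes called in IFNg_TIC against IFNg were called in the opposite direction. Leaving out 1 library gave 2020 to 2137 genes higher and 3448 to 3587 lower, with 559 to 574 and 976 to 1074 at a log2 change of 1 or more. For the difference from the effect without interferon the ranges were 278 to 381 higher and 795 to 1074 lower, with 91 to 125 and 195 to 239 at 1 or more. For the difference from the effect with IFNb they were 208 to 281 and 564 to 748, with 71 to 87 and 141 to 191 at 1 or more. That last count of lower genes, 158, moved to 256 with a pseudocount of 0.1 and to 243 with equal sums per library; the cause was not tested. Median-ratio scaling gave 3050 genes higher and 3015 lower, and equal sums 2093 and 3986, with all-gene medians of 0.01 and -0.16. The counts of differences also depended on the scaling. For the difference from the effect without interferon, median-ratio scaling gave 489 higher and 734 lower, and equal sums 377 and 1036. For the difference from the effect with IFNb, median-ratio scaling gave 377 and 597, and equal sums 252 and 889.

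The sign turned in genes near 0 that were not called. Vim, at -0.00, came to 0.14 with median-ratio scaling and lay between -0.035 (without IFNg replicate 2) and 0.025 (without IFNg replicate 3) when a library was left out. Aqp4, at -0.13, came to 0.0065 with median-ratio scaling. Fabp4, at 0.04, lay between -0.12 (without IFNg replicate 2) and 0.37 (without IFNg replicate 1). Of the values of named genes under the alternatives, 2689 kept their direction and their side of the threshold, 28 lost the call, 1 gained it and 8 turned. The antiviral list kept 32 to 35 members higher.

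Replicate numbers are shared between the groups, but same-numbered libraries deviated together with correlations of only 0.0276, -0.000685 and -0.0399, so the numbers were not taken as pairs. The fit with the replicate block gave 2282 genes higher and 3737 lower, against 2282 and 3765 without it, 391 and 1061 for the difference from the effect without interferon, and 288 and 753 for that from IFNb. Under it 0 of the 6 guanylate-binding and immunity-related GTPases were lower, against 1 without it. With FPKM only, depth limits cannot be given, and values under about 1 FPKM are the least certain.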
